A study of Saccharomyces cerevisiae with 28 samples.

Results

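Total RNA of peroxide-treated slf1Δ cells was compared with that of peroxide-treated WT cells, to ask which transcripts differed when the La-related protein (LARP) Slf1 was absent during acute oxidative stress. The members are 4 of the 28 samples of the series, chosen by their labels alone: 2 WT libraries and 2 slf1Δ libraries, numbered as replicates 1 and 2 in each strain. WT was the haploid Saccharomyces cerevisiae strain BY4741, which is MATa and carries his3Δ1, leu2Δ0, met15Δ0 and ura3Δ0, and slf1Δ (strain GP7302) was the same background with the whole SLF1 reading frame replaced by KanMX4. Both strains therefore shared every auxotrophic allele and differed by SLF1 and by the drug marker in its place. Cells of both groups received 0.4 mM H2O2 for 15 min, added to part of a growing culture of which the rest was left untreated. The untreated libraries of both strains and the libraries of sro9Δ, a strain lacking the other cytoplasmic LARP, are used only where a difference had to be placed beside them. Each strain is a single deletion stock and the labels do not say how the duplicates were separated, so the p-values below measure the spread between these libraries, which may be technical.

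LARPs are RNA-binding proteins that share a La motif, and in yeast Slf1 and Sro9 associate with polysomes and with messenger RNAs, while Lhp1 is the true La protein that binds the ends of nascent small RNAs. Slf1 was first described for its part in copper homeostasis and was later tied to resistance to peroxide. Yeast answers peroxide through the transcription factors Yap1 and Skn7, which raise antioxidant enzymes, and through Msn2 and Msn4, which bind stress response elements (STREs) and raise a broad set of genes for reserve carbohydrates, chaperones and energy metabolism. Genes of ribosome production usually move the other way in the same response.

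Short stretches upstream of some genes on which the results turn are shown first, because they hold the words through which these factors are known to act. They were read from the RefSeq R64 genome, 30 bases each, 5′ to 3′ on the strand of the gene, and the capitals mark the word found. The first 2 hold an STRE (CCCCT, or AGGGG on the other strand), at chrVI:107054-107083 (HSP12, + strand) and chrVI:255369-255398 (HXK1, - strand). The next 2 hold a Yap1 word (TTACTAA), at chrXVI:227501-227530 (OYE3, - strand) and chrXI:582093-582122 (ECM4, + strand). The last 2 hold a word of the iron factor Aft1 (GCACCC, here as GGGTGC on the other strand) at chrXII:416814-416843 (TIS11, - strand) and a word of the zinc factor Zap1 (ACCTT and its inverted repeat AAGGT around a free base) at chrVII:20765-20794 (ZRT1, + strand).
HSP12: gttccggtcgtcCCCCTcttgatctgaaag
HXK1: catttttttttaAGGGGttgatgaaaagaa
OYE3: cgcaataaccaTTACTAAgcacagtgttgt
ECM4: gttgttctccgTTACTAAgatattagtcag
TIS11: gcacatgcagttGGGTGCattgtgccagca
ZRT1: acatatttgACCTTGAAGGTcatggaaagt

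The libraries differed greatly in depth. Ribosomal RNA and 12 features of its locus took 27.7% and 81.4% of the counts in WT, and 94.8% and 1.44% in slf1Δ. That left 5504898 and 784323 counts in the WT libraries, and 172735 and 21138382 in slf1Δ replicates 1 and 2. A single read was worth 1.86 scaled counts-per-million (CPM, counts relative to the library size after TMM scaling) in slf1Δ replicate 1 and 0.0238 in replicate 2. Of the 41 genes called lower below, 28 had at most 10 counts in slf1Δ replicate 1. Without that library 13 of the 52 calls were kept, and all 52 genes kept their direction, with a log2 change at least 0.9 times as large. As the strains did not overlap in any called gene, a kept direction was close to fixed beforehand and lends the calls no support. The background was checked against the auxotrophic alleles and the mating type, which all strains share and which therefore cannot tell WT from a deletion. LEU2, MET17 (the MET15 gene) and URA3 had 0 counts in all 12 untagged libraries, while HIS3, of which the allele removes only a part, had between 7 and 709 counts. Of the α-specific genes, MF(ALPHA)1 had at most 13 counts in any library, MF(ALPHA)2 at most 33, STE3 at most 54 and SAG1 at most 235. The a-specific receptor gene STE2 had at least 30. In slf1Δ replicate 1 after peroxide the a-specific ASG7 had only 3 counts, beside 6 of SAG1.

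SLF1 itself (YDR515W, chromosome IV, 1473429 to 1474772) had 145 and 14 counts in the WT libraries and 0 in both slf1Δ libraries. Its level was thus at least 145-fold lower in slf1Δ, taking 3 counts over the group as the floor. SRO9 stood at 30.5 and 46.9 CPM in WT and at 83.8 and 68.4 in slf1Δ. Both slf1Δ values lay above both WT values, and the difference of 0.98 on the log2 scale (SE 0.31) did not pass the test (adjusted p = 0.175, by the quasi-likelihood test of edgeR, adjusted by Benjamini-Hochberg, as in all adjusted p-values below). LHP1 had 35.0 and 49.5 CPM in WT against 59.6 and 73.1 in slf1Δ (adjusted p = 0.285). None of the 5 genes next to SLF1 passed the test. Among them EMI2, which encodes a glucokinase-like protein and lies just downstream of SLF1 on the other strand, had 331 and 311 CPM in WT and 110 and 116 in slf1Δ (adjusted p = 0.174). GRX2, encoding a glutaredoxin, had 448 and 401 against 259 and 304 CPM (adjusted p = 0.505), and EMI1, YDR514C and GRH1 had adjusted p-values from 0.42 to 0.995.

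After peroxide, 11 of 7367 features were higher in slf1Δ (0.149%) and 41 were lower (0.557%), SLF1 among the latter. The median log2 change over all features was -0.03. Of the 40 others called lower, 27 were protein-coding genes. They included 3 genes of sugar uptake and phosphorylation, 2 of glycogen breakdown, 2 of glycerol and dihydroxyacetone metabolism and 2 of the SUR7 family, and the rest were spread over other lists or stood in none. The 7 protein-coding genes called higher included the zinc transporter gene ZRT1. The number of calls rested on every library: 0 higher and 6 lower were called without WT replicate 1, 1 and 15 without WT replicate 2, 3 and 11 without slf1Δ replicate 1, and none without slf1Δ replicate 2. With the 4 libraries of the comparison fitted alone, 57 were higher and 96 lower. At an unadjusted p of 0.05, 1043 features passed (14.2%). In all 52 called features the slf1Δ libraries lay wholly above or wholly below the WT libraries, as they did in 18.1% (above) and 24.2% (below) of all features. Counts are relative to the library, so fewer copies per cell and fewer cells with the transcript cannot be told apart.

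**Figure D1:**
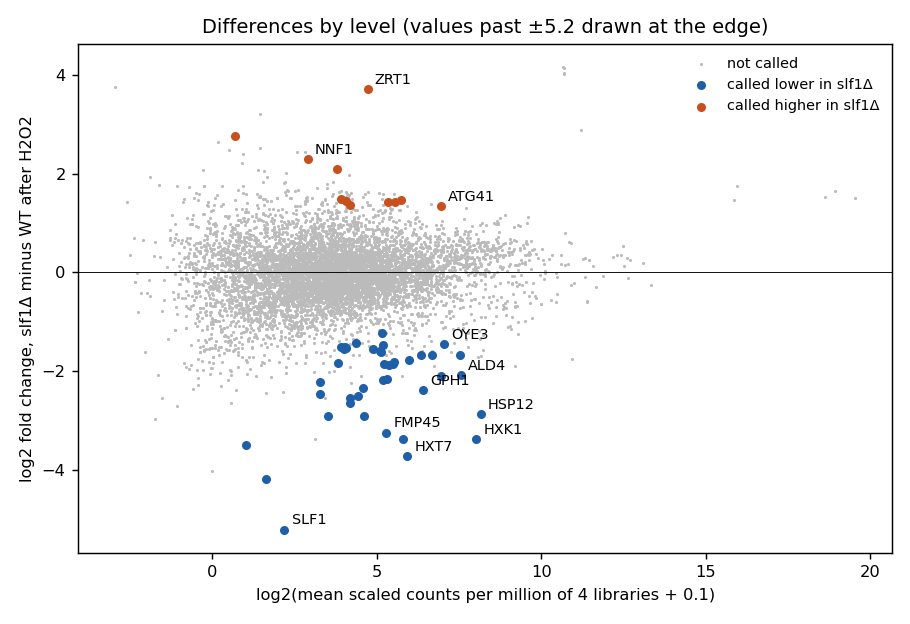
Each point is a feature, with its log2 mean scaled CPM over the 4 libraries on the x axis and the log2 fold change of slf1Δ minus WT after H2O2 on the y axis. The 41 features called lower (blue) and 11 called higher (orange) lie away from the bulk, and SLF1 is drawn at the lower edge although its fitted value is beyond it.

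The lowest sugar-handling genes were HXT7 and HXT6, which encode high-affinity glucose transporters, and HXK1, which encodes a hexokinase induced when glucose is low. HXT7 stood at 116 and 111 CPM in WT and at 5.59 and 9.20 in slf1Δ, where replicate 1 held only 3 counts and replicate 2 held 386. The groups were far apart, and the change was -3.72 on the log2 scale (SE 0.45, adjusted p = 0.00164). HXT6, next to it on chromosome IV, had 97.2 and 104 CPM in WT and 11.2 and 9.47 in slf1Δ, a log2 change of -3.36 (adjusted p = 0.00286). HXT6 and HXT7 are nearly identical in sequence, so reads cannot be assigned firmly to either and their values are not independent. HXK1 had 535 and 417 CPM in WT and 35.4 and 52.3 in slf1Δ (log2 change -3.38, SE 0.51, adjusted p = 0.00711). Of the 18 genes of glucose-regulated sugar transport and phosphorylation, these 3 were lower and none higher, and the median log2 change of the list was -0.71 (-1.07 without slf1Δ replicate 2). The next by p was MIG2, a glucose-responsive repressor gene, at 8.67 and 8.25 CPM in WT and 3.73 and 2.29 in slf1Δ (adjusted p = 0.0935).

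Glycogen breakdown was represented by both of its enzymes. GPH1, encoding glycogen phosphorylase, had 150 and 136 CPM in WT against 24.2 and 28.8 in slf1Δ, a log2 change of -2.38 (SE 0.41, adjusted p = 0.0123). GDB1, encoding the debranching enzyme, had 70.3 and 58.8 CPM against 18.6 and 17.3 (log2 change -1.88, adjusted p = 0.0188). In each gene the 2 slf1Δ libraries lay close together and well below WT. Over the 21 trehalose and glycogen genes these were the only calls, 19 members had a negative fitted change and the median was -0.96. The trehalase genes NTH2 and ATH1 came next by p, with log2 changes of -1.11 (adjusted p = 0.101) and -1.44 (adjusted p = 0.104), neither past the threshold. Outside that list, AMS1 (vacuolar α-mannosidase) fell by 1.51 and TKL2 (a transketolase of the pentose phosphate pathway) fell by 2.54 on the log2 scale, with adjusted p-values of 0.0279 and 0.0323. Without slf1Δ replicate 2 the change of TKL2 was -1.68.

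The genes of glycerol and dihydroxyacetone metabolism gave 2 calls among 12, with a list median of -0.51 that ran from -1.23 (without slf1Δ replicate 2) to -0.37 (without WT replicate 1) as libraries were left out. DAK2, encoding a dihydroxyacetone kinase, had 11.5 and 20.6 CPM in WT and 3.73 and 2.67 in slf1Δ, replicate 1 of which held 2 counts (log2 change -2.45, SE 0.44, adjusted p = 0.0177). GUT2, encoding the mitochondrial glycerol-3-phosphate dehydrogenase, had 63.9 and 52.6 CPM against 16.8 and 12.04 (log2 change -2.17, adjusted p = 0.0111). AQY3 (YFL054C), an aquaglyceroporin gene beside DAK2 on chromosome VI, had 39.5 and 41.2 CPM against 5.59 and 8.35 (log2 change -2.34, adjusted p = 0.0188). The aldehyde dehydrogenase genes ALD3 (cytosolic) and ALD4 (mitochondrial) were also lower. ALD3 had 361 and 207 CPM in WT and 74.5 and 99.6 in slf1Δ (adjusted p = 0.0446), and ALD4 had 345 and 264 against 70.8 and 73.7 (adjusted p = 0.0449). Both WT values of each gene lay above both slf1Δ values, with the wider spread in WT for ALD3. UGA2, for succinate semialdehyde dehydrogenase, had 50.9 and 50 against 18.6 and 16.4 CPM (log2 change -1.58, adjusted p = 0.0188).

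Small stress proteins and membrane proteins of the SUR7 family formed a further group. HSP12, a membrane-associated stress protein and a classical Msn2 and Msn4 target, had 686 and 315 CPM in WT against 74.5 and 64.7 in slf1Δ (log2 change -2.87, SE 0.49, adjusted p = 0.0123). TMA10, for a ribosome-associated protein, had 61.7 and 26.3 CPM against 3.73 and 6.41 (adjusted p = 0.00972). For both genes WT replicate 1 was the higher of the WT libraries, and both slf1Δ libraries lay far below either. FMP45 and YNL194C encode relatives of the eisosome protein Sur7. FMP45 had 71.0 and 67.5 CPM in WT and 9.31 and 7.01 in slf1Δ (log2 change -3.24, SE 0.46, adjusted p = 0.00463), and YNL194C had 60.7 and 53.6 against 20.5 and 14.5 (adjusted p = 0.0323). They were the only calls among the 12 genes of that family and the eisosome, whose median was -0.62 (-0.96 without slf1Δ replicate 2). Among 28 general stress response genes 2 were called lower (ALD3 and ALD4) and none higher, 26 had a negative fitted change and the median was -1.12. PHM7 and YDL218W, the next by p in that list, had log2 changes of -1.78 (adjusted p = 0.0599) and -1.60 (adjusted p = 0.0554). Heat shock chaperones did not share this shift, with 1 call (HSP12) among 29 and a median of -0.02. That median was -0.22 without slf1Δ replicate 2, -0.11 without WT replicate 2, 0.07 without slf1Δ replicate 1 and 0.13 without WT replicate 1. The chaperone gene HSP26, at 184 and 91.8 CPM in WT and 48.4 and 62.4 in slf1Δ, did not pass (adjusted p = 0.0665).

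**Figure D2:**
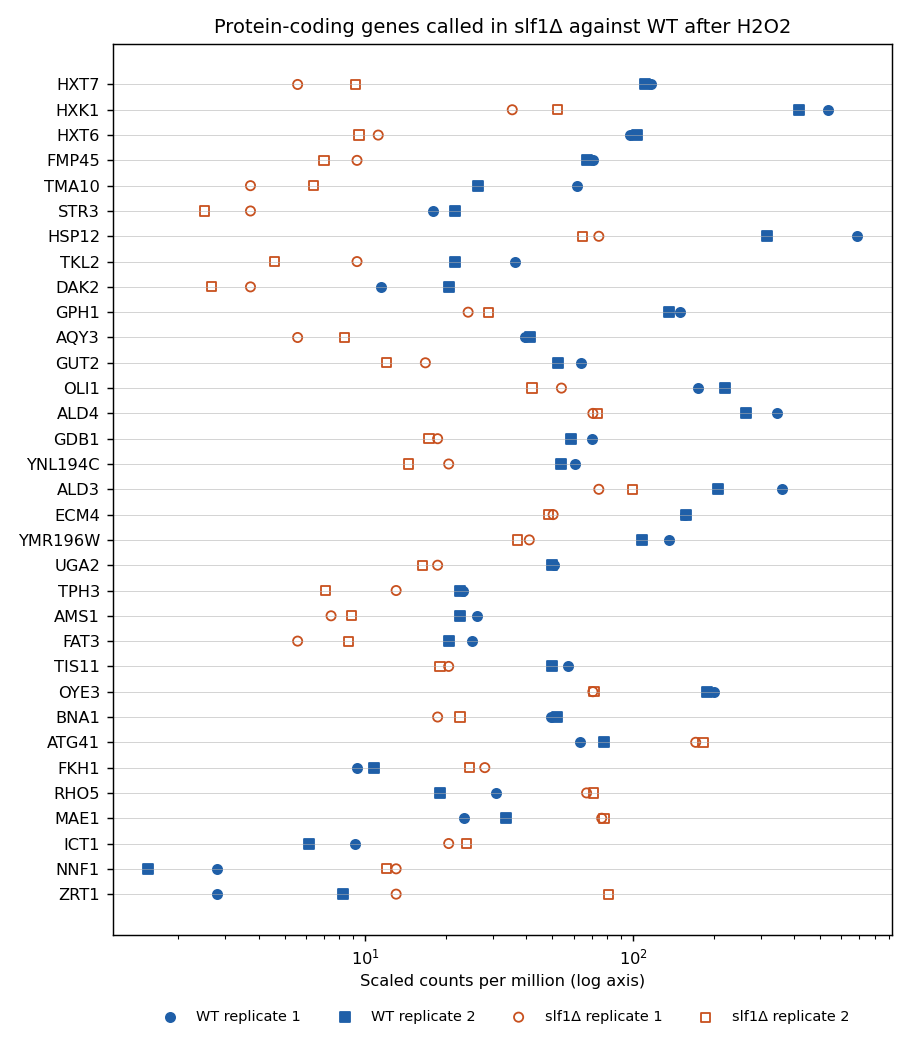
Scaled CPM on a log axis of the protein-coding genes called in slf1Δ against WT after H2O2, ordered by log2 change, with 1 point for each library (WT filled blue, slf1Δ open orange, circles for replicate 1 and squares for replicate 2). In every gene drawn the orange points lie wholly to one side of the blue points. Genes with a library at 0 are left out, SLF1 among them.

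Enzymes that remove peroxide were mostly not called. Of 39 peroxide-detoxifying and redox genes, 1 was lower and none higher, with 30 negative fitted changes and a median of -0.55. Both slf1Δ libraries lay below both WT libraries in 24 of the 39, beside 24.2% of all features. They lay above in 4, beside 18.1%. The call was OYE3, which encodes an NADPH oxidoreductase of the old yellow enzyme family, at 200 and 189 CPM in WT and 70.8 and 71.5 in slf1Δ (log2 change -1.45, SE 0.28, adjusted p = 0.0223). ECM4, for an omega-class glutathione transferase, had 157 CPM in both WT libraries against 50.3 and 48.4 in slf1Δ (log2 change -1.68, adjusted p = 0.0107). In both genes the duplicates of each strain lay close together. The catalase gene CTA1 had 121 and 101 CPM against 55.9 and 53.3 (adjusted p = 0.0665), and GND2, for a 6-phosphogluconate dehydrogenase, had 32.9 and 22.7 against 9.31 and 7.25 (adjusted p = 0.0665).

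The 6 antioxidant genes that the study followed were each called neither higher nor lower. PRX1, the mitochondrial peroxiredoxin gene, had 342 and 270 CPM in WT and 106 and 152 in slf1Δ, a log2 change of -1.22 (SE 0.33, adjusted p = 0.103). TSA2, a cytosolic peroxiredoxin gene, had 880 and 784 against 432 and 403 CPM (log2 change -0.99, adjusted p = 0.287). The groups did not overlap in either gene. TSA1, the major cytosolic peroxiredoxin gene, had 1853 and 1410 CPM in WT and 727 and 1696 in slf1Δ, so that the strains overlapped (adjusted p = 0.764). TRX2 (thioredoxin) and ZWF1 (glucose-6-phosphate dehydrogenase) had log2 changes of -0.67 and -0.69, with adjusted p-values of 0.528 and 0.417. GRX2 had a log2 change of -0.59. In TRX2, ZWF1 and GRX2 too both slf1Δ libraries lay below both WT libraries, as in 24.2% of all features. In TRX2 the margin was small, with 889 and 634 CPM in WT against 322 and 626 in slf1Δ. For TSA1 the fitted change turned to 0.06 without slf1Δ replicate 1, and for TRX2 it was -0.28 without that library, -1.24 without slf1Δ replicate 2 and -0.41 without WT replicate 1. Each of the 6 genes had between 57 and 390 counts in slf1Δ replicate 1.

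Several called genes belonged to other pathways. STR3, encoding cystathionine β-lyase of methionine synthesis, had 17.9 and 21.7 CPM in WT and 3.73 and 2.50 in slf1Δ (log2 change -2.91, adjusted p = 0.00711), the 1 call among 30 sulfur and methionine genes. The methionine permease gene MUP1 had 89.7 and 97.9 against 16.8 and 42.6 CPM (adjusted p = 0.0665). TIS11, which encodes a zinc-finger protein that directs decay of AU-rich mRNAs under iron limitation, had 57.0 and 50 CPM in WT against 20.5 and 19.0 in slf1Δ (log2 change -1.47, adjusted p = 0.0333) and was the 1 call among 29 iron-regulon genes. BNA1 (NAD synthesis from tryptophan) fell by 1.23 and FAT3 (fatty acid uptake) fell by 1.499 on the log2 scale, both with an adjusted p of 0.0449. TPH3 (log2 change -0.82 without slf1Δ replicate 2), YMR196W and HAB1 were lower as well, HAB1 with 52 and 7 counts in WT and 0 and 14 in slf1Δ. OLI1, the mitochondrially encoded subunit of the ATP synthase ring, had 174 and 221 CPM in WT and 54.0 and 41.9 in slf1Δ (adjusted p = 0.0449). It was the 1 call among 7 mitochondrially encoded protein genes, whose median was -1.12, while COX2 had an adjusted p of 0.164. The median was -2.12 without WT replicate 1, -1.87 without slf1Δ replicate 2 and -0.65 without WT replicate 2. The 12 copper-handling genes gave no call and a median of 0.05 (0.13 to 0.27 over the left-out libraries), and CCC2, the copper pump gene with the smallest p among them, had a log2 change of -1.07 (adjusted p = 0.136), which was -0.44 without slf1Δ replicate 2.

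Among the genes called higher, ZRT1 (high-affinity zinc uptake, a Zap1 target) had 2.79 and 8.25 CPM in WT and 13.0 and 80.7 in slf1Δ, a log2 change of 3.70 (SE 0.59, adjusted p = 0.00852). The 2 slf1Δ libraries differed widely from each other, and without replicate 2 the log2 change was 1.61. The Zap1 word printed above lies 204 bases before its start codon. FET4, a low-affinity iron and zinc transporter gene, had 20.9 and 20.6 CPM against 57.8 and 42.4 and did not pass (adjusted p = 0.0903). NNF1, a kinetochore gene, had 2.79 and 1.55 CPM in WT against 13.0 and 12.04 in slf1Δ (log2 change 2.29, adjusted p = 0.0107), with only 3 counts in WT replicate 2. MAE1 (mitochondrial malic enzyme) had 23.4 and 33.5 against 76.4 and 77.9 CPM (adjusted p = 0.0449), and RHO5, a small GTPase gene, had 30.8 and 19.1 against 67.1 and 71.0 (adjusted p = 0.0442). ATG41, FKH1 and ICT1 rose by 1.34, 1.37 and 1.49 on the log2 scale. In each of these 3 genes the slf1Δ libraries were both above 20 CPM and both above WT.

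Ribosome biogenesis genes lay higher as a list although no single member was called. Of 63 such genes, 62 had a positive fitted change and the median log2 change was 1.03. For 49 of the 63 both slf1Δ libraries lay above both WT libraries, beside 18.1% of all features, and 39 passed at an unadjusted p of 0.05, beside 5.78% of all features in that direction. The summed level of the list was 941 and 1196 CPM in WT and 1928 and 2183 in slf1Δ. TSR1, which encodes a factor for maturation of the small ribosomal subunit, had 6.98 and 9.79 CPM in WT and 26.1 and 24.01 in slf1Δ (log2 change 1.64, adjusted p = 0.122). NMD3, for the export adaptor of the large subunit, had 24.4 and 25.8 against 78.3 and 61.3 CPM (adjusted p = 0.126). UTP4 and PWP2, of the small-subunit processome, had adjusted p-values of 0.144 and 0.133.

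Ribosomal protein genes behaved otherwise. All but 1 of the 138 had a positive fitted change, and their median was 0.49. Yet only 16 of the 138 had both slf1Δ libraries above both WT libraries, beside 18.1% of all features, so that count is not above background. Their summed level was 33740 and 38470 CPM in WT and 27140 and 70200 in slf1Δ, so the WT libraries lay between the slf1Δ libraries. Without slf1Δ replicate 2 the list median was -0.44, and without replicate 1 it was 0.99. RPS27A, the member with the smallest p, had 27.1 and 27.8 against 31.7 and 81.8 CPM (adjusted p = 0.157). For ribosome biogenesis the corresponding medians were 0.83 and 1.09.

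The general stress, trehalose and glycogen, and redox lists kept a negative median whichever library was left out. Other stress lists did not. The median of the heat shock chaperones changed sign, as given above. That of 20 stress transcription factor genes went from -0.06 to 0.05 without WT replicate 1. Leaving out each of the 4 libraries in turn, the median of the general stress genes ran from -1.41 to -0.83 and that of the trehalose and glycogen genes from -1.01 to -0.81. The redox genes ran from -0.73 to -0.38. The summed level of the general stress genes was 7273 and 5639 CPM in WT and 2947 and 3802 in slf1Δ, and both slf1Δ libraries lay below both WT libraries in 24 of the 28 members, beside 24.2% of all features.

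**Figure D3:**
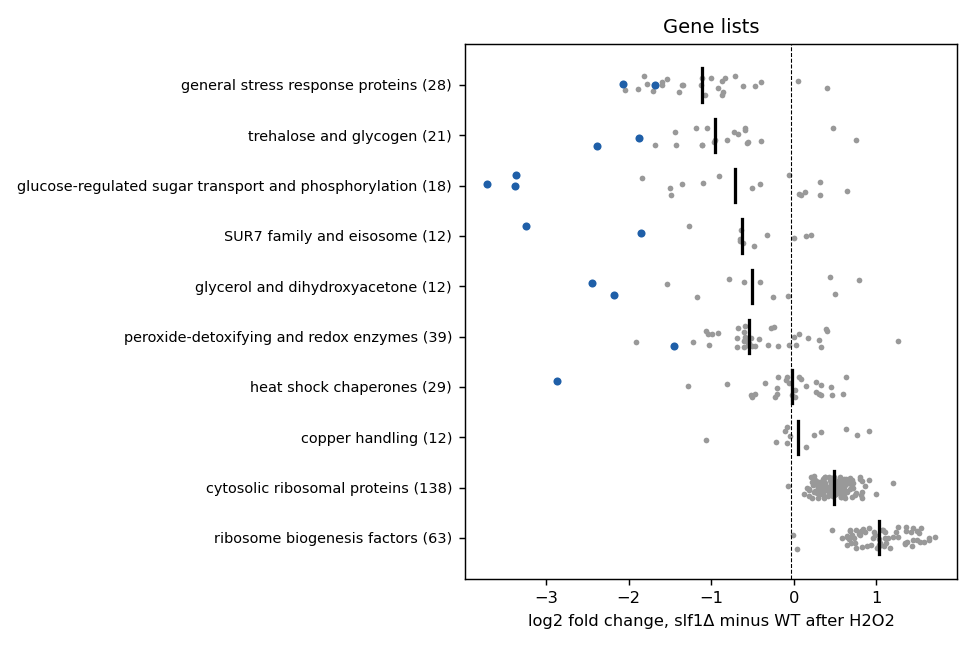
Each point is a gene, placed by its log2 fold change of slf1Δ minus WT after H2O2, in 10 lists with the number of genes tested in brackets. Blue points passed the adjusted test, black bars are list medians and the dashed line is the median of all features. General stress genes centre at -1.12, heat shock chaperones at -0.02, ribosomal proteins at 0.49 and ribosome biogenesis genes at 1.03.

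Transcripts without a known protein were also among the calls. CUTs and SUTs are classes of unstable and stable non-coding transcripts. Of 583 CUTs tested 4 were lower, and of 634 SUTs 7 were lower, with log2 changes from -2.65 to -1.43. CUT401 and SUT261 were higher. Over all features 0.557% were lower and 0.149% higher, so nothing is read from these counts about either class. The coordinates of CUTs and SUTs are not in the annotation used here. In each of the 4 libraries SUT443 had counts within 3.96% of those of UGA2, SUT223 within 9.09% of those of FAT3 and SUT435 within 10% of those of GUT2, so the entries of each pair may count the same reads and are not taken as separate results. SUT223 was as close to YGR127W, and CUT260 was within 9.07% of ATH1, neither of which was called. Less closely, the nearest feature by counts was a called gene for SUT261 (ICT1, within 15.4%), SUT326 (YNL194C, 22.9%) and SUT018 (TKL2, 23.2%). These may share reads too and are not taken as separate results. YFR052C-A and YPR160C-A (lower) and YKL030W and YGR176W (higher) are listed in the count tables without an entry in the RefSeq table, and YGR176W had only 6 and 1 counts in WT. By their systematic names YFR052C-A, YPR160C-A and YKL030W stand beside the called genes HXK1 (YFR053C), GPH1 (YPR160W) and MAE1 (YKL029C). Whether they share reads with these was not tested.

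STREs were common upstream of the genes called lower. At least 1 STRE lay within 500 bases before the start codon in 19 of the 26 nuclear protein-coding genes called lower other than SLF1 (73.1%), against 34.5% of 5580 protein-coding genes tested. In 11 of the 26 there were at least 2 (42.3%, against 8.23%), and HSP12 had 5. HXT7 had 2 and its near copy HXT6 had 0. Of the 7 protein-coding genes called higher, 1 had an STRE. The Yap1 word lay before 6 of the 26 lower genes (23.1%), against 11.9% of all genes tested. These were OYE3 (2 copies), ECM4, TKL2, GPH1, ALD3 and ALD4. It lay before 0 of the 7 higher genes. The Aft1 word lay before 3 of the 26 lower genes (11.5%), against 7.44% of all genes. These were TIS11 (2 copies), FMP45 and YNL194C, and among the 7 higher genes it lay before RHO5. The Zap1 word lay before 9 of the 5580 genes, ZRT1 among them. All words were searched on both strands, and an STRE and an Aft1 word can share bases. A match describes the letters of the window only.

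The mRNAs that Slf1 bound were looked up in the same comparison. In PAR-CLIP, RNA crosslinked to a tagged protein is sequenced and T-to-C changes mark the crosslinks. The 2 libraries of Slf1-TAP after the same peroxide treatment gave 1456 and 709 clusters that met the study's definition of a binding site, and 175 genes tested had a site in the coding region in both. None of the 175 was called by edgeR, a count near the background of 0.706% of all features, from which nothing is read about the bound mRNAs. Their median log2 change was 0.29 against -0.01 for all 5596 protein-coding genes. Ribosomal protein genes made up 59 of the 175, and the median of the other 116 was 0.03. Among the genes called, HXK1, ECM4, OYE3 and GDB1 had a site in 1 of the 2 libraries and the others had none. SLF1 itself had none.

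Sites are shown for 3 antioxidant mRNAs that were not called (GRX2, TSA2 and TRX2) and for ECM4 and HXK1, which were called lower, so that the bound sequences of both can be read. GRX2 had 3 and 2 sites in the PAR-CLIP libraries with 138 and 114 reads, TRX2 3 and 2 sites with 151 and 84 reads, TSA1 4 and 5 sites with 441 and 521 reads, and TSA2 1 site in each with 38 and 22 reads. PRX1 had 1 site with 25 reads in the first library and none in the other, and ZWF1 had none. Below, up to 30 bases of the cluster with most reads are given as deposited. The capital marks the deposited mode location, where the ratio of signal to signal plus background was highest. It is not taken as the crosslinked base. The stretches lie at chrIV:1471369-1471398 (GRX2, + strand), chrIV:1365411-1365440 (TSA2, - strand), chrVII:912961-912990 (TRX2, - strand), chrXI:582512-582541 (ECM4, + strand) and chrVI:253844-253873 (HXK1, - strand).
GRX2: acattggtGgtaacagcgatttggaaactt
TSA2: gactctgaatattccttactggcatggacC
TRX2: aagggcggtaaggagGttaccagagtcgtc
ECM4: aaggatggagatttttggacatggaaaaGc
HXK1: gctagattagctgtttgtggtattgCcgct

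Whether the differences arose with the treatment was asked by comparing the peroxide response of slf1Δ with that of WT. No gene passed this interaction test at the adjusted threshold in edgeR, in which 874 of 7367 passed unadjusted (11.9%), while DESeq2 called 33 higher and 19 lower. Within edgeR the test called 2 higher and 6 lower with no filter. With a separate replicate block for each strain it called 17 and 10, and with crossed pairing 56 and 47. Treated and untreated cells came from split cultures, which the unblocked test leaves out, but the labels do not give the pairs. The number of calls therefore depends on the tool, the filter and the blocking, and it depended on the WT untreated libraries too. Without WT untreated replicate 2 the test called 477 higher and 395 lower, and without WT untreated replicate 1 it called 4 and 12. The 5 genes with the smallest p shared an adjusted p of 0.0722. HXT7 was at 8.97 and 27.7 CPM in untreated WT and at 116 and 111 after peroxide, while slf1Δ went from 12.2 and 12.8 to 5.59 and 9.20, an interaction of -3.13 on the log2 scale (SE 0.57). FMP45 went from 0.54 and 1.70 to 71.0 and 67.5 CPM in WT, and from 2.26 and 2.45 to 9.31 and 7.01 in slf1Δ, an interaction of -4.09 (SE 0.65). Before treatment the strains overlapped for HXT7 and were all under 3 CPM for FMP45, and after it they lay far apart. DAK2, TIS11 and YLR198C had interactions of -3.52, -2.26 and 2.87.

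Other genes had lower fitted values in slf1Δ before treatment too, without passing the test there. HXK1 had 15.5 and 64.2 CPM in untreated WT against 12.2 and 10.5 in untreated slf1Δ, and HSP12 had 15.8 and 22.7 against 7.74 and 3.16. The untreated log2 changes were -1.83 (adjusted p = 0.182) and -1.87 (adjusted p = 0.175), with interactions of -1.54 (adjusted p = 0.379) and -1.001 (adjusted p = 0.585). HSP12 was higher after peroxide than before in both strains. GPH1 had an untreated log2 change of -2.03 (adjusted p = 0.0608) and an interaction of -0.36 (adjusted p = 0.861). ATG41, called higher after peroxide, had an untreated change of 1.31 (adjusted p = 0.0939) and an interaction of 0.03 (adjusted p = 0.992). For these 2 genes the difference after peroxide was thus close to the one before it. ZRT1 had 43.2 and 33.5 CPM in untreated WT and 59.9 and 66.7 in untreated slf1Δ, so its level after peroxide was low in WT, and in slf1Δ it was low in replicate 1 but not in replicate 2 (interaction 2.98, adjusted p = 0.189). SRO9 had 135 and 87.6 CPM in untreated WT and 127 and 143 in untreated slf1Δ. It was lower after peroxide in every library of either strain.

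The loss of the other LARP gave partly different values. The comparisons share the WT and slf1Δ libraries after peroxide, so values are given side by side. HXT7 was at 25.03 and 19.3 CPM in sro9Δ after peroxide, a log2 change from WT of -2.35 (adjusted p = 0.0331), against -3.72 in slf1Δ. HXT6 and SRO9 itself were the other 2 calls of sro9Δ against WT (0.0407% of features, all lower). In slf1Δ against sro9Δ, 22 features were higher (0.299%) and 33 lower (0.448%). FMP45 stood at 28.9 and 58.2 CPM in sro9Δ against 9.31 and 7.01 in slf1Δ, a log2 difference of -2.56 (adjusted p = 0.0136). ECM4 stood at 111 and 180 CPM in sro9Δ against 50.3 and 48.4 (log2 difference -1.57, adjusted p = 0.0136). For HSP12, HXK1 and GPH1 the sro9Δ libraries lay between the WT and slf1Δ libraries, and the difference between the deletions was not called. In sro9Δ against WT after peroxide the median log2 change was 0.54 for ribosome biogenesis genes and -0.42 for general stress genes. In slf1Δ against sro9Δ these medians were 0.44 and -0.82, and in untreated slf1Δ against untreated WT -0.55 and -0.40. Against WT after peroxide the medians of both lists had the same sign in the 2 deletions. Both are measured against the same WT libraries, so no shared shift is inferred.

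**Figure D4:**
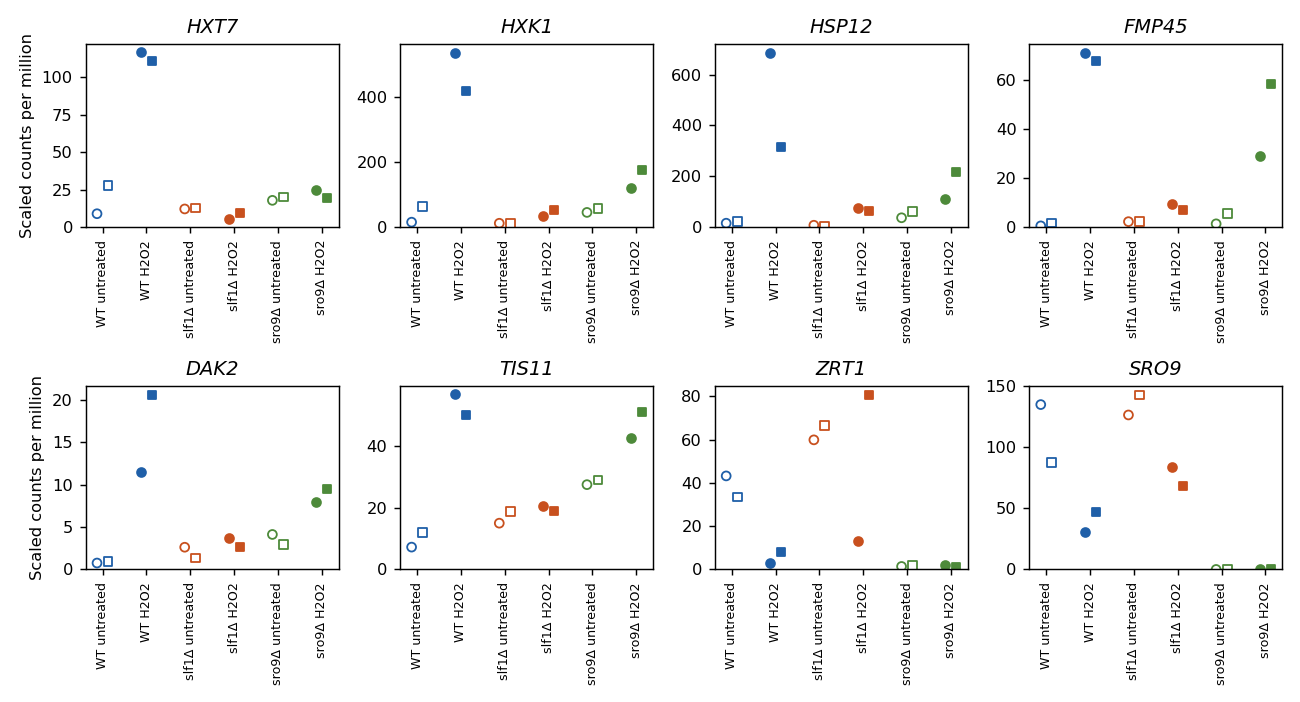
Scaled CPM of 8 genes in the 12 untagged libraries, by strain (WT blue, slf1Δ orange, sro9Δ green) and treatment (open untreated, filled H2O2), with circles for replicate 1 and squares for replicate 2. HXT7, FMP45 and DAK2 lay under 30 CPM in every untreated library and apart after H2O2, where slf1Δ stayed under 10 CPM. SRO9 is at or near 0 in sro9Δ.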

How the data were processed

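The authors depleted rRNA with Ribo-Zero, made TruSeq stranded libraries, trimmed with Trim Galore, aligned with Bowtie 1.2.0 to R64-1-1 (sacCer3) and deposited raw counts per feature from featureCounts. The strand setting of the counting is not given in the sources used here, so reads of overlapping genes and antisense partners cannot be told apart. For PAR-CLIP they deposited clusters with read counts, called in each library on its own. Of these, clusters with at least 5 reads, 2 conversions and 11 to 100 bases were kept here, and those with their mode in a coding region on its strand were counted.

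Samples were grouped by their labels. After leaving out 16 rRNA features, edgeR 4.0.16 (R 4.3.3; filterByExpr, TMM, quasi-likelihood test, 6 groups, 12 libraries, 6 residual degrees of freedom) tested 7367 of 9217 features, called at a Benjamini-Hochberg adjusted p under 0.05. With 2 against 2 libraries an exact permutation test of a single gene cannot go below p = 0.333. Total counts ran from 3323216 to 21447260 per library, and floors cover counting error only. Gene names and positions came from RefSeq R64, which matched 6048 features, and all 2165 clusters kept equalled its sequence. The comparison, the gene lists and the words searched were chosen with earlier results of these data known. Genes named are SLF1, SRO9, LHP1 and the neighbours of SLF1, called genes with the largest changes (up to 12 each way, at least 20 counts on average, groups not overlapping), up to 4 of each list described by p, the 5 smallest p of the interaction and 6 antioxidant genes of the study. The remaining called genes were named after their values were seen. Alternatives were RLE scaling, DESeq2 1.42.0, no filter, a filter of 50 counts in every library of a group, rRNA kept, the contrast's libraries alone, protein-coding genes alone, a replicate block and each library left out. Leaving out the rRNA locus and a crossed block were added after seeing the data. The fit was tested on simulated data. Tagged total RNA, Sro9 PAR-CLIP and untreated PAR-CLIP files were not used here.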

Additional observations from a re-analysis of the deposited data

Results flagged for a closer look

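Some genes named above differed between the 2 LARP deletions after peroxide, by the test of slf1Δ against sro9Δ itself (the quasi-likelihood test of edgeR, adjusted by Benjamini-Hochberg over 7367 features). Higher in slf1Δ than in sro9Δ were ZRT1 by 4.88 on the log2 scale (adjusted p = 0.000752), NNF1 by 2.67 (adjusted p = 0.00231), CYB5, a cytochrome b5 gene of sterol synthesis, by 2.50 (adjusted p = 0.0033), RPS27A by 2.43 (adjusted p = 0.00598) and LHP1 by 1.43 (adjusted p = 0.0325). ZRT1 was already apart before treatment, at 1.38 and 1.63 CPM in untreated sro9Δ and 59.9 and 66.7 in untreated slf1Δ. After peroxide its change from WT was 3.70 in slf1Δ, where the libraries had 13.0 and 80.7 CPM, and -1.18 in sro9Δ. For RPS27A the change from WT was 1.197 in slf1Δ and -1.23 in sro9Δ, and for LHP1 it was 0.71 and -0.72. The slf1Δ values were 0.211 for RPS27A without slf1Δ replicate 2 and 0.456 for LHP1 without WT replicate 1.

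Lower in slf1Δ than in sro9Δ were YFR052C-A (log2 difference -2.74, adjusted p = 0.0348), FMP45 (-2.56, adjusted p = 0.0136), SUT435 (-2.34, adjusted p = 0.0105) and STR3 (-2.27, adjusted p = 0.0206). UGA2 (-1.78, adjusted p = 0.00764) and SUT443 (-1.80, adjusted p = 0.00604) may count the same reads. AMS1 had a log2 difference of -1.68 (adjusted p = 0.0124), TPH3 of -1.64 (adjusted p = 0.0206), CUT728 of -1.61 (adjusted p = 0.0105), ECM4 of -1.57 (adjusted p = 0.0136), CUT784 of -1.53 (adjusted p = 0.0498) and NTH2 of -1.37 (adjusted p = 0.0468). For UGA2 the change from WT was -1.58 in slf1Δ and 0.21 in sro9Δ. These values share the slf1Δ libraries with the comparison of the report.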

How the results depend on the processing

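Against WT after peroxide, the number called moved between the alternatives. Those of the 52 called genes that were tested kept their direction under every alternative run. In all 52 the groups did not overlap, so the direction could hardly turn, and its keeping lends the calls no support. The base counts were 11 higher and 41 lower. Higher and lower calls were 57 and 96 with the contrast's 4 libraries alone, 7 and 23 among protein-coding genes alone, 26 higher in DESeq2 and 19 higher with no filter. Leaving out each library gave 0 to 3 higher and 0 to 15 lower: 0 and 6 without WT replicate 1, 1 and 15 without WT replicate 2, 3 and 11 without slf1Δ replicate 1, and 0 and 0 without slf1Δ replicate 2, whose lone partner has 172735 counts outside the rRNA locus. A left-out library leaves its group with a lone sample, assumed to vary like the other groups.

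Neither the labels nor the deviations of same-numbered libraries gave a pairing: the deviations correlated at -0.12 between WT and slf1Δ after peroxide, and from -0.26 to 0.331 over the 15 pairs of groups, with -0.11 between untreated and treated WT and 0.17 between untreated and treated slf1Δ. With a replicate block shared by all libraries the counts were 46 and 76 against WT and 39 higher against sro9Δ. The interaction was fitted with a separate replicate block for each strain and gave 17 and 10. With crossed pairing the same fits gave 59 and 104 against WT and 56 and 47 in the interaction.

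The interaction, at 0 and 0, gave 33 and 19 calls in DESeq2 and 2 and 6 with no filter, and from 0 to 477 higher and 0 to 395 lower when a library was left out. Against sro9Δ, at 22 and 33, DESeq2 gave 56 higher, the contrast's libraries 34 higher, and protein-coding genes 17 lower. Leaving out a library gave 1 to 27 higher and 0 to 17 lower (1 and 0 without slf1Δ replicate 2). Direction turned for YDR514C, to 0.18 with the replicate block, 0.0162 among protein-coding genes, from -0.559 to 0.195 over left-out libraries (0.195 without WT replicate 2, 0.00888 without slf1Δ replicate 1), 0.0225 without the rRNA locus and 0.0743 with crossed pairing, for GRH1 (-0.000778 with the block, -0.82 to 0.488 over left-out libraries, the former without slf1Δ replicate 2) and for TSA1 (-1.17 to 0.0632 over left-out libraries, the latter without slf1Δ replicate 1), none of them called. The cause was not tested.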
